A study of Mus musculus with 8 samples.

Results

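Protocadherins are cell-surface adhesion proteins of the cadherin superfamily. The present set holds every array feature whose platform annotation gives exactly 1 gene symbol beginning with Pcdh, without the tip-link gene Pcdh15. It comprises 34 genes of 22180 genes measured by such features: 22 Pcdhb genes, 1 Pcdhg gene (Pcdhga10), 11 non-clustered genes and 0 Pcdha genes. Each of the 34 genes had 1 such feature, so no choice among features was needed. Expression was measured on Affymetrix Mouse Gene 2.0 ST arrays in whole encapsulated cochleae of mice at postnatal day 16. The 4 knockout arrays came from animals labelled miR-183/96 KO and the 4 control arrays from animals labelled control, called wild type in the series description. Both cochleae of an animal were pooled, so each array is 1 animal. The sources used here give neither strain, sex nor the design of the deletion, and the labels name no agent or treatment. Values per animal are listed in the order of the replicate numbers, 1 to 4.

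Most mammalian protocadherins lie in the Pcdha, Pcdhb and Pcdhg clusters, which stand next to each other on 1 chromosome. In the alpha and gamma clusters a variable exon, coding for the extracellular and transmembrane parts, is spliced to constant exons shared by the whole cluster, whereas each Pcdhb gene is a single exon. Neurons express a subset of the clustered isoforms, through a choice of promoters that involves CTCF and cohesin. The isoforms bind their own kind across cell contacts, which gives neurites an identity used in self-avoidance. Non-clustered protocadherins are expressed more regionally, in neurons, epithelia and vessels, and many guide adhesion, sorting and synapse formation. In the cochlea Pcdh20 is known as a marker of one class of type I spiral ganglion neurons, the class that is also rich in calretinin, the product of Calb2.

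The groups are defined by loss of microRNAs, whose mature sequences are shown because the seed is the part that pairs with a target. The sequences are those of RefSeq, build GRCm38.p6, on the minus strand of chromosome 6, with the seed (bases 2 to 8) in capitals. The lines give the dominant arms of the microRNAs named in the knockout label and of the third member of their cluster, miR-182.
miR-183-5p: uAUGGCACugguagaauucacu
miR-96-5p: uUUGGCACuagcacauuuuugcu
miR-182-5p: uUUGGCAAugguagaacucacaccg
The 3 seeds differ from each other, AUGGCAC in miR-183-5p, UUGGCAC in miR-96-5p and UUGGCAA in miR-182-5p. The corresponding positions are chr6:30169711-30169732 for miR-183-5p, chr6:30169506-30169528 for miR-96-5p and chr6:30165962-30165986 for miR-182-5p. Target sites in protocadherin transcripts were not analysed here.

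The targeted locus was examined first. The Mir96 feature read 4.01, 4.26, 4.26 and 4.31 in the knockout and 5.71, 5.26, 6.23 and 5.57 in the control arrays, and the groups did not overlap. Its log2 difference was -1.48 (SE 0.17; limma adjusted p = 0.00932). The Mir183 feature, at the 3.51st percentile of signal, read 2.40, 2.38, 1.82 and 2.38 in the knockout and 2.45, 2.23, 2.79 and 2.84 in the control arrays. Its groups overlapped and it did not pass (-0.33, SE 0.18, limma adjusted p = 0.398). Mir182, which the knockout label does not name, was at 0.35 (SE 0.17, limma adjusted p = 0.364), also with overlap. Cochlear markers fixed for the tissue check were measured, with Myo7a and Pou4f3 of hair cells at mean log2 values of 5.94 and 5.61, and the bone collagen gene Col1a1 at 11.6. The 7 hair cell genes ranged from 4.54 to 6.27 and the 4 brain genes from 2.68 to 5.27. RMA values give no background call, so these means do not show which cells were present. Across the 8 arrays the log2 values correlated at 0.947 to 0.976 between arrays. The differences depended on signal: from the lowest to the highest of 10 deciles of tested features by mean log2 value, the median difference between knockout and control went from 0.13 to -0.21. The SD of log2 values within an array was 1.37 to 1.44 in knockout and 1.41 to 1.56 in control arrays. Because 28 of the 34 protocadherin features lay in the lower 5 deciles, the difference of each gene described below is given beside the median of its decile.

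No protocadherin gene passed the test. With limma and Benjamini-Hochberg adjustment over 23521 features, 0 of 34 protocadherin genes had an adjusted p under 0.05, against 0.0128% of all features tested, and the smallest adjusted p among the members was 0.258. At an unadjusted p under 0.05 there were 5 members, all higher in knockout cochlea and all in the Pcdhb cluster. The split changed with the normalization, to 4 higher and 1 lower after cyclic loess and 3 higher and 1 lower after repeated quantile normalization, and 2 were higher with the signal range of each array as a covariate. As deposited, the 5 members are 14.7% of the 34. Of all features 14.3% reached that p in either direction, 7.04% as higher and 7.25% as lower. In 3 members, 8.82% of the 34, all knockout values lay above all control values, where the groups did not overlap in 5.96% of all features and were higher in knockout in 3.30% and lower in 2.65%. Among features of the lower 5 deciles, 10.5% were higher at an unadjusted p under 0.05 and 5.09% were higher without overlap. No member was lower without overlap. The median difference over the 34 genes was 0.09 on the log2 scale, beside 0.01 over all features tested. The median of the decile medians at the members' signal was 0.11, and 16 of 34 members lay above their decile's median.

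In the Pcdhb cluster 15 of 22 genes had a positive and 7 a negative log2 difference, with a median of 0.11 and a range from -0.23 to 0.53. The 15 genes are 68.2% of the cluster. A positive difference was found in 52.4% of all tested features and in 73.4% of those in the lower 5 deciles, which held 21 of the 22 Pcdhb features, so the share of positive signs was near that of other features of like signal. The median of the decile medians over these genes was 0.13, and 10 of 22 genes exceeded the median of their own decile. After cyclic loess normalization of the arrays the split was 10 positive and 12 negative, with a median of -0.025, while 42.7% of all tested features were positive. The mean log2 value over the 22 features was 4.33, 4.22, 4.23 and 4.31 in knockout replicates 1 to 4 and 4.09, 4.18, 4.20 and 4.14 in control replicates 1 to 4. As deposited, the knockout animals were the higher ones in this mean without overlap, but only narrowly, from 4.216 upwards against at most 4.205. The group difference in this mean was 0.12. The median log2 value of all 41345 features was also higher in knockout arrays, by 0.08 on average and with overlap. After median-centring the median Pcdhb difference was 0.025.

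**Figure D1:**
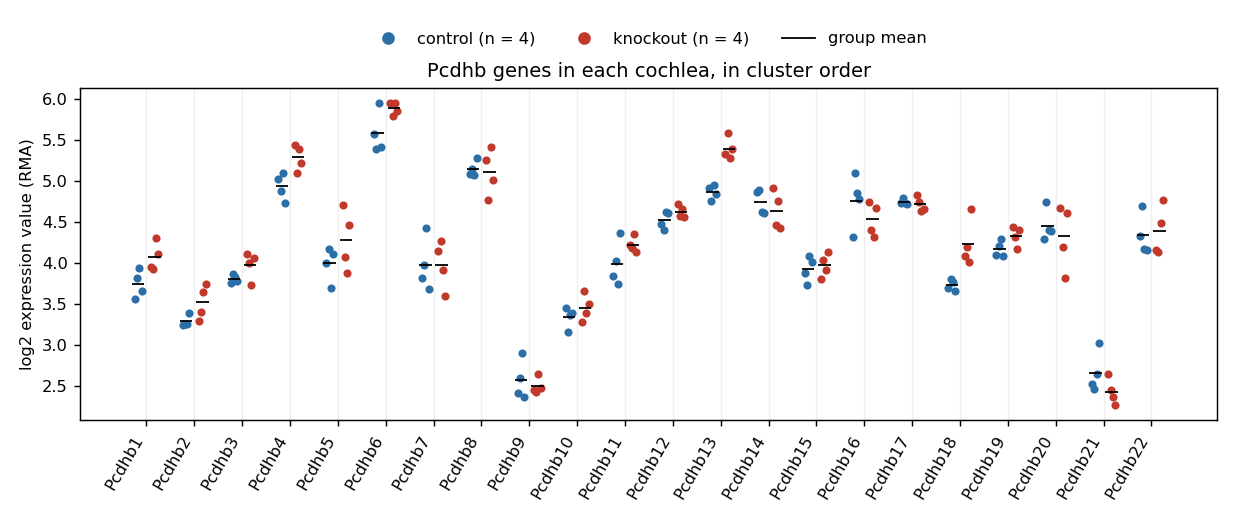
Log2 expression values (vertical axis) of the 22 Pcdhb genes, ordered as along the cluster, in 4 control (blue) and 4 knockout (red) cochleae, with black lines at group means. The red points of Pcdhb13, Pcdhb18 and Pcdhb4 lie above all blue points of the same gene, while the groups overlap in the other 19 genes; heights of different genes are not comparable as transcript amounts.

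Pcdhb13 had the largest difference of the family. Its feature, 17349910, read 5.34, 5.59, 5.28 and 5.39 in knockout and 4.92, 4.76, 4.95 and 4.85 in control animals. Every knockout value exceeded every control value. The means were 5.40 ± 0.13 and 4.87 ± 0.09 (SD, n = 4), a log2 difference of 0.53 (SE 0.11, limma adjusted p = 0.258), or 1.44-fold. Its unadjusted p of 4.1e-04 ranked 36 among the 23521 features, and the median of its decile was 0.08. The difference was 0.44 after cyclic loess (adjusted p = 0.390). It ranged from 0.47 to 0.57 when each array was left out in turn, and the adjusted p over 20 alternatives was never under 0.0735.

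Pcdhb18 and Pcdhb4 were the other genes without overlap. Pcdhb18, at feature 17349930, read 4.09, 4.19, 4.02 and 4.66 in knockout and 3.70, 3.81, 3.78 and 3.66 in control animals. Knockout replicate 4 was the highest and the other knockout values lay closer to the controls. The log2 difference was 0.50 (SE 0.15, limma adjusted p = 0.296), where the median of its decile was 0.14. It was 0.36 both without knockout replicate 4 and after cyclic loess, and the groups overlapped after cyclic loess. Pcdhb4, at feature 17349876, read 5.44, 5.10, 5.40 and 5.23 in knockout and 5.03, 4.88, 5.10 and 4.74 in control animals. Its lowest knockout and highest control values were both 5.10 after rounding, so the separation was narrow. The difference was 0.35 (SE 0.13, limma adjusted p = 0.303), beside a decile median of 0.08. Cyclic loess gave 0.26, and a fit with signal range as a covariate gave 0.13.

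The remaining genes at an unadjusted p under 0.05 were Pcdhb6 and Pcdhb1, the second of which is named for this count after its values were seen. Pcdhb6, the cluster's feature with the highest signal, read 5.95, 5.79, 5.96 and 5.86 in knockout and 5.58, 5.40, 5.96 and 5.42 in control animals. Control replicate 3 reached the top of the knockout values, and the other 3 controls lay below all of them. The difference was 0.30 (SE 0.13, limma adjusted p = 0.334), in a decile whose median was -0.04. It was 0.42 without control replicate 3 and -0.025 with the signal range of each array as a covariate. Pcdhb1 was at 0.33 (SE 0.13, limma adjusted p = 0.313), beside a decile median of 0.14, and at 0.18 after cyclic loess, where its unadjusted limma p was 0.160.

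At the other end of the cluster's differences stood Pcdhb21. It read 2.66, 2.45, 2.37 and 2.27 in knockout and 2.52, 2.47, 2.66 and 3.03 in control animals, a difference of -0.23 (SE 0.15, limma adjusted p = 0.464), opposite in sign to its decile median of 0.13. Leaving out control replicate 4 gave -0.11. Cyclic loess gave -0.34 (limma adjusted p = 0.489), and Pcdhb21 was then the member lower at an unadjusted p under 0.05. These are among the lowest signals of the array, at the 4.18th percentile of tested features, and no detection call was used here. The groups overlapped, with control replicate 4 the highest. Pcdhb8, the third by signal in the cluster, read 5.25, 4.77, 5.42 and 5.02 in knockout and 5.09, 5.14, 5.08 and 5.29 in control animals. Its control values lay within the range of the knockout values (difference -0.03, SE 0.14, limma adjusted p = 0.918), and its decile median was 0.08.

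Along the cluster, whose genes stand in number order in RefSeq assembly GRCm38.p6, the 7 genes from Pcdhb1 to Pcdhb7 all had positive differences, from 0.01 in Pcdhb7 to 0.35 in Pcdhb4. The 2 genes Pcdhb8 and Pcdhb9 were negative, and the 4 genes from Pcdhb10 to Pcdhb13 positive again, from 0.10 to 0.53. The last 9 genes were mixed in sign, with Pcdhb18 the highest and Pcdhb21 the lowest. The sign turned negative after cyclic loess in Pcdhb7 (-0.14), Pcdhb10 (-0.021), Pcdhb12 (-0.029), Pcdhb15 (-0.0995) and Pcdhb22 (-0.094), while Pcdhb1 to Pcdhb6 stayed positive, from 0.022 to 0.28. These runs were seen in the data and carry no test. Pcdhb genes are similar in sequence, and probes that bind more than 1 of them would make the features less independent, which was not tested.

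**Figure D2:**
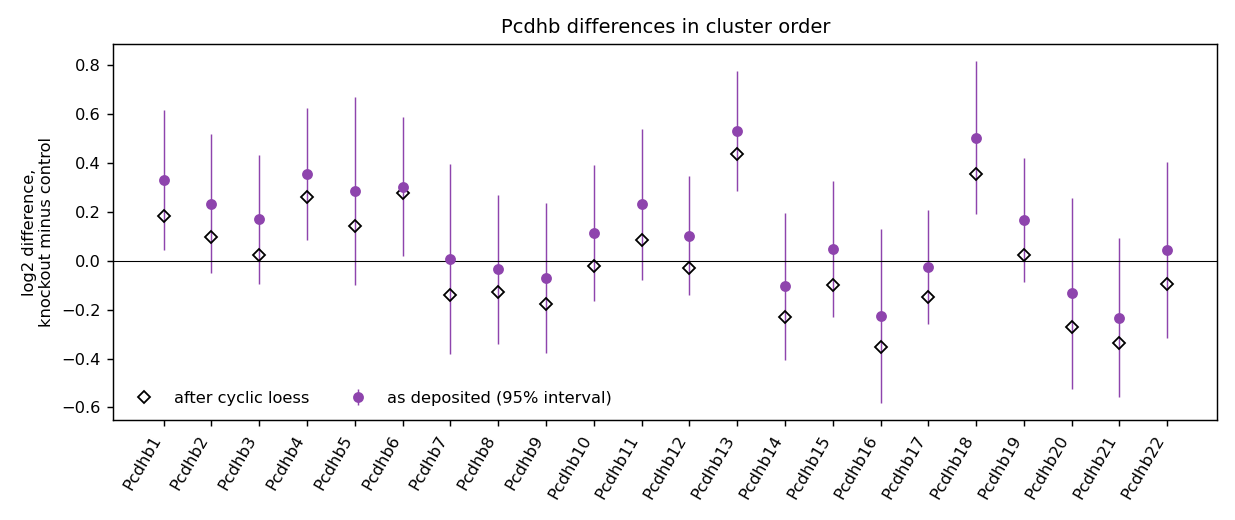
Log2 difference, knockout minus control, for the 22 Pcdhb genes in cluster order, as deposited (filled, bars are 95% intervals from limma) and after cyclic loess normalization (open diamonds). Pcdhb13 is highest under both, at 0.53 and 0.44, and in each of the 22 genes the value after cyclic loess is the lower one.

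The alpha and gamma clusters were measured mainly by features that the annotation links to several genes, outside the single-symbol set. One feature, 17353781, listed 9 Pcdha genes, among them Pcdhac1 and Pcdhac2. It read 6.15, 6.25, 6.22 and 6.02 in knockout and 5.66, 5.71, 5.72 and 5.52 in control animals, so the lowest knockout value exceeded the highest control value. Of the 23521 single-symbol features 3.30% were higher in knockout without overlap. That share was not computed for features of several symbols. The means were 6.16 ± 0.10 and 5.65 ± 0.09 (SD, n = 4), a log2 difference of 0.51 (SE 0.10), or 1.42-fold. In a limma fit over all 41345 features the unadjusted p was 5.6e-04 and the adjusted p 0.268. The median of all table features in the same decile of signal was -0.03. The difference was 0.51 after cyclic loess, 0.47 with signal range as a covariate, and 0.46 to 0.55 when each array was left out in turn. Which of the 9 genes contributed to the feature cannot be told apart.

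A feature of the gamma cluster, 17353800, listed 9 Pcdhg genes, among them Pcdhgc3, Pcdhgc4 and Pcdhgc5. It read 4.45, 4.55, 4.56 and 4.67 in knockout and 4.27, 4.00, 4.35 and 4.24 in control animals, again without overlap. Among single-symbol features of the lower 5 deciles, 5.09% were higher in knockout without overlap. The difference was 0.34 (SE 0.12, limma adjusted p = 0.363), where the decile median was 0.12, both over all 41345 features. It was 0.20 after cyclic loess (limma adjusted p = 0.563) and 0.21 with signal range as a covariate. With each array left out in turn it ranged from 0.27, without control replicate 2, to 0.39. The single-symbol feature of the cluster, Pcdhga10, read 5.56, 5.63, 5.32 and 5.16 in knockout and 5.34, 5.69, 5.68 and 5.57 in control animals. Its groups overlapped, and the difference was -0.15 (SE 0.13, limma adjusted p = 0.588), of the opposite sign to the feature shared by the 9 gamma genes and beside a decile median of 0.02. For Pcdhga10 the adjustment and the decile are those of the 23521 single-symbol features. Leaving out knockout replicate 4 gave -0.065, and leaving out control replicate 1 gave -0.23. Whether these 2 features differ from each other was not tested.

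**Figure D3:**
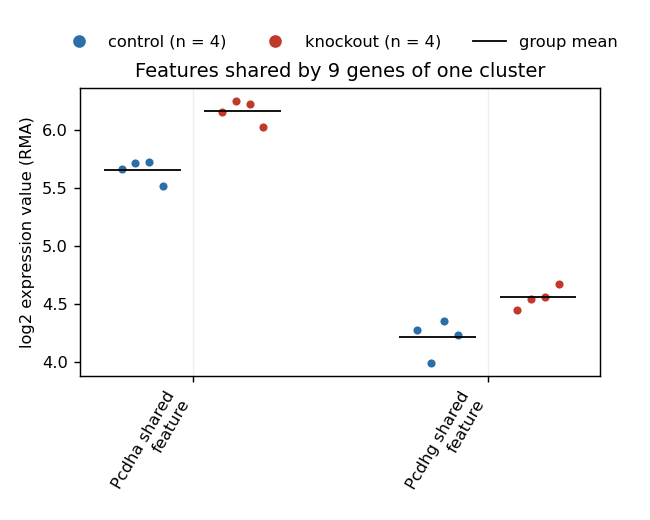
Log2 expression values (vertical axis) of the features that the annotation links to 9 Pcdha genes and to 9 Pcdhg genes, in 4 control (blue) and 4 knockout (red) cochleae, with black lines at group means. The red points lie above the blue points in both features, from 6.02 upwards against at most 5.72 for the alpha feature and from 4.45 upwards against at most 4.35 for the gamma feature. The protocadherin features shared with 1700027H10Rik and with Gm19774, whose groups overlapped, are not drawn.

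Among the 11 non-clustered genes 7 had positive and 4 negative differences, none with an unadjusted p under 0.05 in limma and none with groups that did not overlap. Their median was 0.08, beside a median of decile medians of 0.06, and the range ran from -0.38 to 0.26. The median was 0.039 without knockout replicate 1 and at most 0.11 when any other array was left out. After cyclic loess 6 were positive and 5 negative, with a median of 0.026. Averaged over the 11 features, knockout animals read 5.11 ± 0.07 and control animals 5.10 ± 0.10 (SD, n = 4), a difference smaller than the spread between animals.

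Pcdh20, the spiral ganglion gene, read 5.75, 5.23, 5.61 and 5.59 in knockout and 5.38, 5.42, 5.48 and 5.59 in control animals. Knockout animals held both the highest and the lowest value. The difference was 0.08 (SE 0.13, 95% interval -0.19 to 0.35, limma adjusted p = 0.770), beside a decile median of 0.02. It was 0.19 without knockout replicate 2, and 0.013 when knockout replicate 1 was left out. In the same arrays Calb2 was at -1.60 (SE 0.14, limma adjusted p = 7.5e-04), and the lower bound of the Pcdh20 interval lay above that value. Whether the 2 differences differ from each other was not tested, and no background call was available for either gene. Of the other 6 measured genes fixed with them for type I neurons and their subtypes, 0 passed. Calb1 was at -1.08 (limma adjusted p = 0.226) and lower without overlap, as were 2.65% of all tested features. Runx1 was at -0.20, Rxrg at -0.17, Pou4f1 at 0.17, Grm8 at 0.15 and Ntng1 at 0.026. In whole cochlea fewer cells of a type and less RNA per cell cannot be told apart.

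The non-clustered genes Pcdh1, Pcdh7, Pcdh9 and Pcdh11x form one structural group and code for adhesion proteins with a longer extracellular part than their relatives. Pcdh7 had the most negative difference of the family. It read 5.77, 5.89, 5.37 and 5.43 in knockout and 5.98, 6.40, 5.49 and 6.12 in control animals. Control replicate 3 lay among the knockout values and the other 3 controls above them. The difference was -0.38 (SE 0.18, limma adjusted p = 0.354), beside a decile median of -0.04. It was -0.55 without control replicate 3 and -0.40 after cyclic loess, but 0.14 with signal range as a covariate.

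Pcdh9, a neuronal gene, read 4.29, 4.08, 4.45 and 4.43 in knockout and 5.20, 4.85, 4.21 and 3.98 in control animals. Control animals held the 2 highest values and the lowest one, and their SD of 0.56 was over that of the knockout group, 0.17. The difference was -0.25 (SE 0.22, limma adjusted p = 0.588), opposite in sign to its decile median of 0.11, and ran from -0.44 to -0.036 with each array left out, the ends being without control replicates 4 and 1. Pcdh1, an epithelial and neuronal adhesion gene, was at 0.14 (SE 0.13, limma adjusted p = 0.611), with values from 5.09 to 5.57 in knockout and 4.98 to 5.27 in control animals. Its decile median was 0.06, and the difference was 0.039 without knockout replicate 1. Pcdh11x, the X-linked member, was at 0.12 (SE 0.15, limma adjusted p = 0.712) with a feature at the 9.29th percentile of signal, beside a decile median of 0.13. It was -0.017 after cyclic loess and 0.025 without control replicate 4.

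The group of shorter relatives comprises Pcdh8, Pcdh10, Pcdh17, Pcdh18 and Pcdh19, several of which act in axon growth and synapses. Pcdh10, a neuronal gene, had the highest difference among the non-clustered genes. It read 5.15, 4.97, 5.01 and 5.37 in knockout and 5.12, 4.79, 4.98 and 4.56 in control animals. The groups overlapped, with control replicate 4 the lowest. The difference was 0.26 (SE 0.14, limma adjusted p = 0.406), beside a decile median of 0.08, and it was 0.16 after cyclic loess. A second Pcdh10 feature, which the annotation links to 1700027H10Rik as well, was at 0.07 (SE 0.22), and at -0.16 without knockout replicate 4.

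Pcdh18 had the highest signal of the 34 features, at the 84.8th percentile. It read 6.87, 6.63, 6.28 and 6.31 in knockout and 6.66, 6.94, 6.59 and 6.69 in control animals. Knockout replicates 3 and 4 lay below all controls, and replicates 1 and 2 among them. Its difference of -0.19 (SE 0.14, limma adjusted p = 0.515) stood beside a decile median of -0.16, and single arrays moved it, to -0.31 without knockout replicate 1 and to -0.11 when replicate 3 of that group was left out. Pcdh19, an X-linked gene of neurons, was at 0.18 (SE 0.13, limma adjusted p = 0.521), Pcdh8, an activity-regulated neuronal gene, at 0.15 (SE 0.14, limma adjusted p = 0.614), and Pcdh17, a synaptic gene, at -0.07 (SE 0.11, limma adjusted p = 0.768). The decile medians were 0.11 for Pcdh19, 0.06 for Pcdh8 and 0.11 for Pcdh17. With each array left out in turn Pcdh19 ranged from 0.12 to 0.28, Pcdh8 from 0.062 to 0.26 and Pcdh17 from -0.10 to -0.044. Pcdh19 read 4.61 to 4.80 in knockout and 4.33 to 4.81 in control animals, and Pcdh17 read 4.64 to 4.79 and 4.69 to 4.86.

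Pcdh12, a gene of vascular endothelium, read 5.56, 5.55, 5.70 and 5.69 in knockout and 5.59, 5.55, 5.39 and 5.66 in control animals. The values of the groups were intermingled, with a difference of 0.08 (SE 0.11, limma adjusted p = 0.741) beside a decile median of 0.02, and 0.025 without control replicate 3. Of the 6 endothelial markers 4 were lower, such as Kdr (-0.17) and Pecam1 (-0.12), and 2 higher, Cdh5 (0.025) and Emcn (0.009). Their median difference was -0.09 beside a median of decile medians of -0.13, and 0 of them passed. After cyclic loess 3 were higher and 3 lower, with a median of -0.050 and Pecam1 at 0.007.

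**Figure D4:**
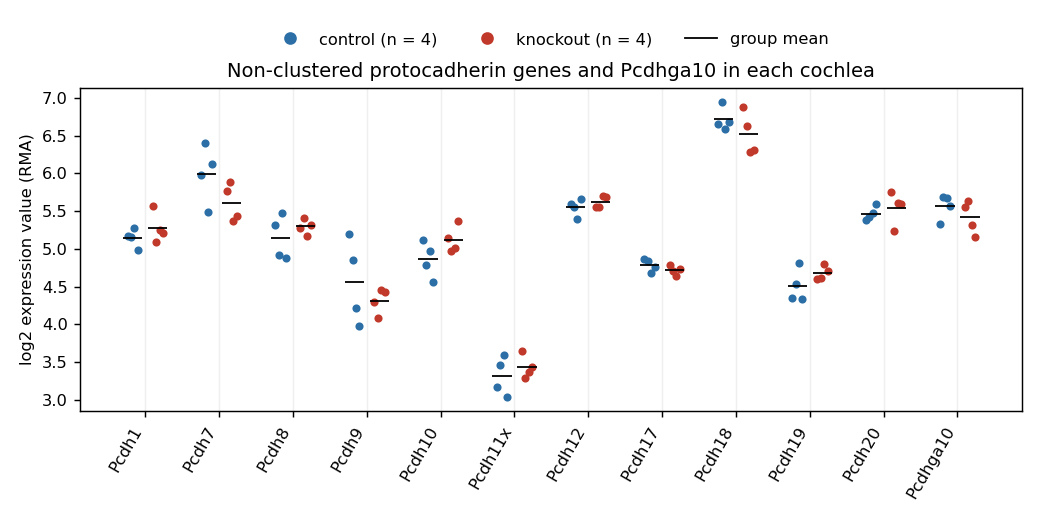
Log2 expression values (vertical axis) of the 11 non-clustered protocadherin genes and of Pcdhga10 in 4 control (blue) and 4 knockout (red) cochleae, with black lines at group means. Control and knockout points overlap in each of the 12 genes, and the control points of Pcdh9 spread from 3.98 to 5.20.

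Genes that act with protocadherins were examined from lists. Regulators of isoform choice, namely CTCF, cohesin and chromatin factors, had negative differences in 10 of 11 genes, with a median of -0.32, and 0 passed. They included the cohesin gene Smc1a at -0.42 (SE 0.12, limma adjusted p = 0.296), the cohesin loader Nipbl at -0.49, Ctcf at -0.42 and the cohesin release factor Wapl at -0.39. These are mostly features of deciles 9 and 10 by signal, where only 17.6% and 12.3% of all tested features had positive differences. The median of decile medians was -0.21, and 1 of 11 genes lay above the median of its own decile. After cyclic loess 10 of 11 were negative, with a list median of -0.20. Ctcf read 7.36, 7.56, 7.09 and 6.84 in knockout and 7.52, 7.73, 7.50 and 7.79 in control animals, with knockout replicate 2 among the controls.

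Of 15 listed signalling and shedding partners 12 were measured, 11 with negative differences, with a median of -0.25 beside a median of decile medians of -0.19, and 0 passed. Of the 12, 4 lay above the median of their own decile. After cyclic loess 10 were negative, with a median of -0.12. Most of these partners also lay in deciles 9 and 10, where 17.6% and 12.3% of tested features were positive. The actin regulators of the WAVE complex Cyfip2 and Brk1 were at -0.49 and -0.32, the kinase substrate Marcks at -0.26 and the sheddase Adam10 at -0.36. Among 12 other large cadherins 4 were positive and 8 negative (median -0.048, and -0.12 after cyclic loess, 0 passed), with Clstn1 at -0.39, Fat4 at -0.34, Fat1 at -0.31 and Dchs2 at 0.25. Among 19 classical cadherins 10 were positive and 9 negative (median 0.025, and 0.016 after cyclic loess, 0 passed), with Cdh4 at 0.41, Cdh11 at -0.42, Cdh24 at 0.21 and Cdh8 at 0.25.

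Markers of other cells were read in the same arrays. The 10 neuronal genes had a median difference of -0.32 beside a median of decile medians of -0.10, and 9 were negative. Snap25 passed as deposited (-1.09, limma adjusted p = 0.0389) but not after cyclic loess (-0.93, limma adjusted p = 0.171). Nefl was at -0.91, Nefm at -0.73 and Nefh at -0.52, and none of them passed. With Snap25 they were the 4 neuronal genes lower without overlap, where 2.65% of all tested features were so. Gap43 was the positive gene, at 0.20. The mean log2 value of the 10 genes ranged from 5.80 to 6.12 in knockout and 6.20 to 6.53 in control animals. The 7 skeletal muscle genes were all negative, with a median of -0.91 beside -0.16 for their deciles, 0 passed, and mean values of 5.38 to 6.87 in knockout and 6.65 to 8.87 in control animals. With the muscle mean as a covariate the Pcdhb median was 0.13 and the Pcdh20 difference -0.028. The part of the neuronal genes in the protocadherin values was not tested. After cyclic loess the medians were -0.24 for the neuronal and -0.87 for the muscle genes. The 7 hair cell genes had a median of -0.05 with Myo6 at -0.53, beside a median of decile medians of 0.02, and -0.11 after cyclic loess. The 5 measured of 7 Schwann cell genes had a median of -0.25 with Mal at -0.57, beside -0.16 for their deciles, and -0.14 after cyclic loess. The 4 bone genes had a median of -0.24 with Col1a1 at -0.42, beside -0.21 for their deciles, and -0.13 after cyclic loess. The 4 brain genes had a median of 0.14 with Gabra6 at 0.27, beside 0.10 for their deciles, and 0.031 after cyclic loess with 2 higher and 2 lower. In these 4 lists 0 genes passed.

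**Figure D5:**
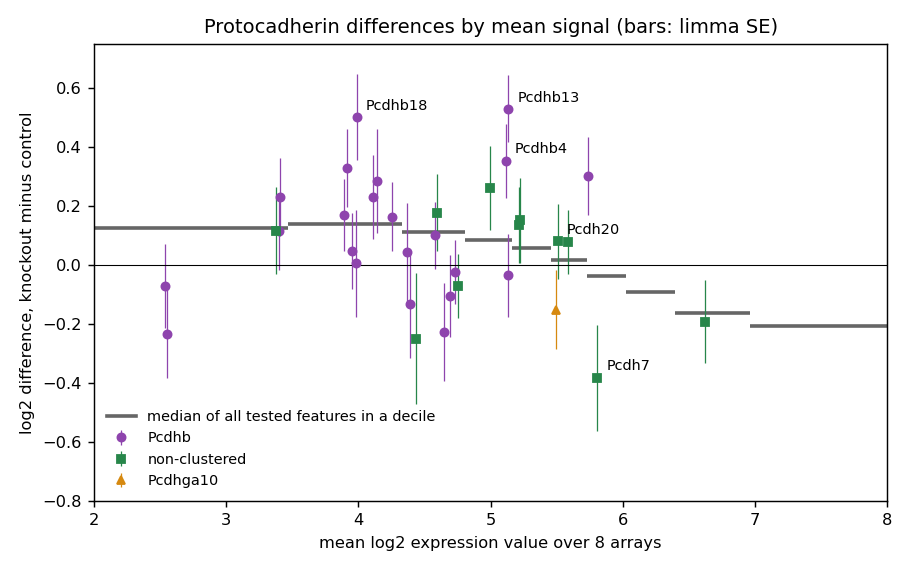
Log2 difference, knockout minus control, of the 34 protocadherin genes (vertical axis, bars are limma standard errors) against the mean log2 value over 8 arrays, with grey bars at the median difference of all tested features in each signal decile; the horizontal axis is cropped, so the outermost deciles run past it. Most protocadherin points lie on the left, where the grey bars are above 0, and 16 of 34 lie above the bar of their decile, with Pcdhb13 the highest at 0.53.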

How the data were processed

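The deposited values are log2 expression values, which the authors computed by gene-level RMA with the Expression Console software of Affymetrix, per the labels' descriptions. Software version, annotation release and the array's genome build: not given in the sources used here. Values between 0.90 and 13.5 show the log2 scale. Of 41345 features the platform annotation linked 23521 to exactly 1 symbol. All 34 protocadherin symbols were found in the RefSeq gene table, which served for names and gene order.

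Genotypes were compared with limma 3.58.1 in R 4.3.3 (lmFit, then eBayes with an intensity trend, genotype as the only term). P-values were adjusted by Benjamini-Hochberg over all 23521 features, with a threshold of 0.05. For features of several symbols the fit, the adjustment and the deciles used all 41345 features. Differences are knockout minus control. Only the limma step was tested on simulated data, with independent noise. Members and lists were chosen with earlier results of these data known. The naming rule took members past the threshold, members whose groups do not overlap, every non-clustered gene, the 3 highest signals, the 3 smallest p and both extremes of each cluster, and up to 4 genes of smallest p per list. RMA values give no background call, and signals of different features are not transcript amounts. The number of arrays limits the precision.

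Replicate numbers are shared by both groups in the labels. Deviations of same-numbered arrays correlated at 0.06, 0.21, 0.21 and -0.29. Those of differently numbered knockout and control arrays correlated at -0.35 to 0.40, so the numbers were not treated as pairs. Alternatives were other variance models, feature sets, normalizations, array weights, covariates and leaving out each array.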

Additional observations from a re-analysis of the deposited data

How the results depend on the processing

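No protocadherin gene had an adjusted p under 0.05 in limma under any of the 20 refits, leaving out each array included; 5 of 34 had an unadjusted p under 0.05. The replicate block, with numbers that share only a label, left the Pcdhb median at 0.11 and called 0 protocadherin genes. The count of called features, 3 as deposited, was 1 over all features of the table, 8 with array weights, 1 with signal range as a covariate and 1 with the muscle level as a covariate. It ranged from 1 to 21 when each array was left out, at 1 without control replicate 1 and at 21 when control replicate 3 was left out. The median over the 34 genes was 0.0078 after median-centring, -0.019 after cyclic loess, -0.014 after repeated quantile normalization and -0.026 with signal range as a covariate. The Pcdhb median was 0.33 among the 4 features with a mean of at least 5. Of these, Pcdhb13 and Pcdhb4 had control means under 5 (4.87 and 4.94). They passed the filter only through their knockout means (5.40 and 5.29), so the filter itself raised that median. Over all 22 genes the median was 0.025 after median-centring, -0.025 after cyclic loess and -0.018 after repeated quantile normalization. It was 0.034 with signal range, and 0.11 to 0.14 with each array left out. The non-clustered median was -0.034 with signal range and -0.0024 after median-centring, and 0.039 to 0.11 with each array left out. Among the genes named by the rule, the sign turned with signal range as a covariate in Pcdhb6 (-0.025), Pcdh1 (-0.039), Pcdh7 (0.14), Pcdh8 (-0.15), Pcdh10 (-0.034), Pcdh11x (-0.15) and Pcdh19 (-0.079). Among the same named genes it turned after median-centring in Pcdh12 (-0.0059) and Pcdh20 (-0.0024), and in Pcdh20 with the muscle level (-0.028). In Pcdh11x it turned after cyclic loess (-0.017) and repeated quantile normalization (-0.014). Of all 22 Pcdhb genes, 5 turned after both of these normalizations (Pcdhb7, Pcdhb10, Pcdhb12, Pcdhb15 and Pcdhb22). Positive Pcdhb genes numbered 12 of 22 after median-centring and also with signal range, against 15 as deposited. The genes that turned there without being named by the rule are not listed. In Pcdhb8, at -0.035 as deposited, the sign turned with array weights (0.017). With each array left out Pcdhb8 ranged from -0.14 to 0.080, positive when knockout replicate 2 or control replicate 4 was left out. The cause was not tested. Signal range is computed from the tested features and differs between the groups. Features of several symbols are described beside the members. Dim features carry no detection call, so low Pcdhb signals cannot be separated from background.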

Other observations

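One more feature lay outside the single-symbol set. It is linked to Pcdhga10 and Gm19774 and read 10.6, 10.8, 10.6 and 10.7 in knockout and 10.7, 10.9, 10.7 and 10.7 in control animals. The groups overlapped (difference -0.04, SE 0.10, limma adjusted p = 0.855 over all 41345 features). Its signal was at the 99.5th percentile of the table, while the single-symbol Pcdhga10 feature was at the 51.3rd percentile of tested features, and which gene gives that signal was not tested. In the 44 sets of 4 arrays checked, of the named members and the features of several symbols, 0 held an array whose gap to the others passed Dixon's critical value.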
